A study of Mus musculus with 6 samples.

Results

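The genes described here are the 10 rows of the deposited gene table, out of 24532, that code for the release channels, the refilling pumps and a calcium sensor of the intracellular calcium store. They were found in the table by symbol, with no threshold on their values, and comprise the ryanodine receptors Ryr1, Ryr2 and Ryr3, the inositol trisphosphate (IP3) receptors Itpr1, Itpr2 and Itpr3, the sarco/endoplasmic reticulum calcium pumps (SERCA) Atp2a1, Atp2a2 and Atp2a3, and Stim1. Bulk RNA-seq was available for 6 libraries of newborn mouse tissue at postnatal day 1 (PN1). Each genotype, Ahnak KO and WT, had 2 libraries of kidney and 1 of ureter. In the KO mice exon 5 of Ahnak, which codes for a giant scaffold protein, had been disrupted in the germ line, and WT mice served as controls. No drug or other agent is named for either group, and the strain and sex were not given in the sources used here. For RNA, 2 to 4 kidneys or ureters were taken, so a library may pool tissue from more than 1 mouse. The titles of the ureter libraries number them as kidney 3, whereas their source name and their table columns say ureter.

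Calcium is held at high concentration inside the endoplasmic reticulum and, in muscle, the sarcoplasmic reticulum. It leaves through ryanodine receptors, which open on a calcium or voltage signal, and through IP3 receptors, which open when phospholipase C has made IP3. SERCA pumps use ATP to take it back, and STIM1 senses an empty store from within the lumen and opens ORAI channels in the plasma membrane. In smooth muscle such as that of the ureter wall these genes shape the calcium waves that drive contraction, and in kidney epithelium IP3 receptors carry hormone signals.

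Each channel family is built on closely related coding sequences. The stretch around the selectivity filter of the pore, the part through which calcium passes, is shown for the 6 release channels because it lets a reader see how like the paralogs are whose levels are compared. The sequences are read 5′ to 3′ on the coding strand from GENCODE M21 transcripts (GRCm38), and the capitals mark the 6 codons of the filter.
Ryr1: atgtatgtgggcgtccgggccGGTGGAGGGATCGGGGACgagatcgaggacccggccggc
Ryr2: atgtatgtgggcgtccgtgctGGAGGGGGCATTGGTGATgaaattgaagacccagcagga
Ryr3: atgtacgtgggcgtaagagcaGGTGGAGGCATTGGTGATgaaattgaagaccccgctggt
Itpr1: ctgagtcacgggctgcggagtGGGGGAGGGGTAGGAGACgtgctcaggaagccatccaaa
Itpr2: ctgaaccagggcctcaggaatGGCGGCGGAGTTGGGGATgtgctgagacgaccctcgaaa
Itpr3: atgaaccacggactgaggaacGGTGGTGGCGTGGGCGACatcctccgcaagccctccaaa
These windows lie in exon 102 of 106 of Ryr1 (chr7:29005577-29005636, minus strand), exon 101 of 105 of Ryr2 (chr13:11560606-11560665, minus strand) and exon 100 of 104 of Ryr3 (chr2:112636610-112636669, minus strand). They lie in exon 58 of 62 of Itpr1 (chr6:108518767-108518826, plus strand), exon 53 of 57 of Itpr2 (chr6:146158890-146158949, minus strand) and exon 54 of 58 of Itpr3 (chr17:27118610-27118669, plus strand). Over the 60 bases, Ryr2 and Ryr3 differed at 10 positions, Ryr1 and Ryr2 at 14, and Ryr1 and Ryr3 at 15. The IP3 receptors differed from each other at 17 to 20 positions.

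The pumps Atp2a1 and Atp2a3 are shown over the loop that takes up phosphate from ATP in each transport cycle, with its 5 codons in capitals, and Stim1 over the loop that binds calcium in the store lumen, with its 12 codons in capitals.
Atp2a1: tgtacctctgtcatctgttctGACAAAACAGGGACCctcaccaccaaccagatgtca
Atp2a3: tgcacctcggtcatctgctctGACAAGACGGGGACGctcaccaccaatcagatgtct
Stim1: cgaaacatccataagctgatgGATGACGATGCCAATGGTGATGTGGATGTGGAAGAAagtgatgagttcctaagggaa
The pump windows lie in exon 9 of 23 of Atp2a1 (chr7:126456386-126456442, minus strand) and exon 8 of 22 of Atp2a3 (chr11:72975585-72975641, plus strand). The Stim1 window spans an intron between exons 2 and 3 of 12 (chr7:102354566-102386098, plus strand). The longest run that a pair of paralogs shared exactly in the coding sequence was 53 bases, between Atp2a1 and Atp2a3, and 35 bases or fewer between any pair of ryanodine receptors. Of all 50-base windows, 4 of Atp2a1 occurred in Atp2a3 and 0 were shared by any other pair within a family, counted in the coding sequence alone.

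The libraries held between 36410246 and 66095616 estimated counts. Levels of a gene between libraries are given as CPM, the count scaled by library size and edgeR's TMM factors, and a floor of 3 counts stood for 0.0421 to 0.101 CPM. All 10 genes passed edgeR's filter on low counts in every fit. Ahnak, the targeted gene, was still counted in the KO libraries. It stood at 135 ± 6.17 CPM (SD, n = 2) in KO kidney and 186 ± 4.23 CPM (SD, n = 2) in WT kidney. The log2 difference in kidney was -0.47 (SE 0.0961, unadjusted p = 0.00265 from edgeR's quasi-likelihood test). After adjustment over all genes tested it was not under 0.05. Over both tissues the KO effect on Ahnak was -0.38 (SE 0.0980, adjusted p = 0.882 from edgeR). The tests thus did not call even the targeted gene. In ureter Ahnak stood at 635 CPM in KO and 727 CPM in WT. Its deposited TPM had the reverse order in ureter, 88.0 in KO and 77.5 in WT. A count over the whole gene does not show whether an exon is disrupted. The first KO kidney library stood apart from the other kidney libraries in having 7755 genes at 0 against 6415 to 6706. It alone held a high Xist count (176348 against 17 to 36 in the other libraries). The KO kidney libraries were thus unlike in Xist, whereas the WT kidney libraries were alike (26 and 24 counts). The part of this imbalance in the comparison of KO and WT kidney was not tested. In the KO ureter library 8.06% of the counts lay on Rn45s, the ribosomal RNA precursor, against 0.496% to 0.632% in the other libraries.

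Levels of different genes were compared in deposited TPM, which is scaled to transcript length. Atp2a2, the pump found in nearly every cell, was the highest in both tissues at 105 ± 6.92 TPM in kidney (SD, n = 4) and at 103 and 120 TPM in WT and KO ureter. Itpr1 followed with 26.0 ± 3.32 TPM in kidney and 27.9 and 21.8 TPM in WT and KO ureter. In kidney Itpr3 (13.8 ± 1.75 TPM), Atp2a3 (10.7 ± 2.16 TPM) and Stim1 (10.2 ± 1.69 TPM) came next, and neighbours in this order overlapped between libraries. Itpr2 (4.19 ± 1.59 TPM) and Atp2a1 (1.37 ± 0.310 TPM) were lower. The ryanodine receptors were the 3 lowest, with Ryr1 at 0.366 ± 0.0436 TPM, Ryr3 at 0.318 ± 0.137 TPM and Ryr2 at 0.0713 ± 0.0382 TPM, and the first of these overlapped with the next.

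In ureter the order of the first 3 was the same, but that of the ryanodine receptors was not. Ryr3 stood at 1.84 TPM in WT and 0.985 TPM in KO ureter, above Atp2a1 (0.828 and 0.239 TPM), Ryr2 (0.264 and 0.214 TPM) and Ryr1 (0.0684 and 0.0201 TPM). The IP3 receptors together outweighed the ryanodine receptors 49.7 to 89.8 times in kidney, 22.8 times in WT ureter and 36.9 times in KO ureter, as ratios of summed TPM. In these bulk samples fewer cells of a type and less RNA per cell cannot be told apart. FPKM gave each gene the same place in the order as TPM in both tissues.

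**Figure D1:**
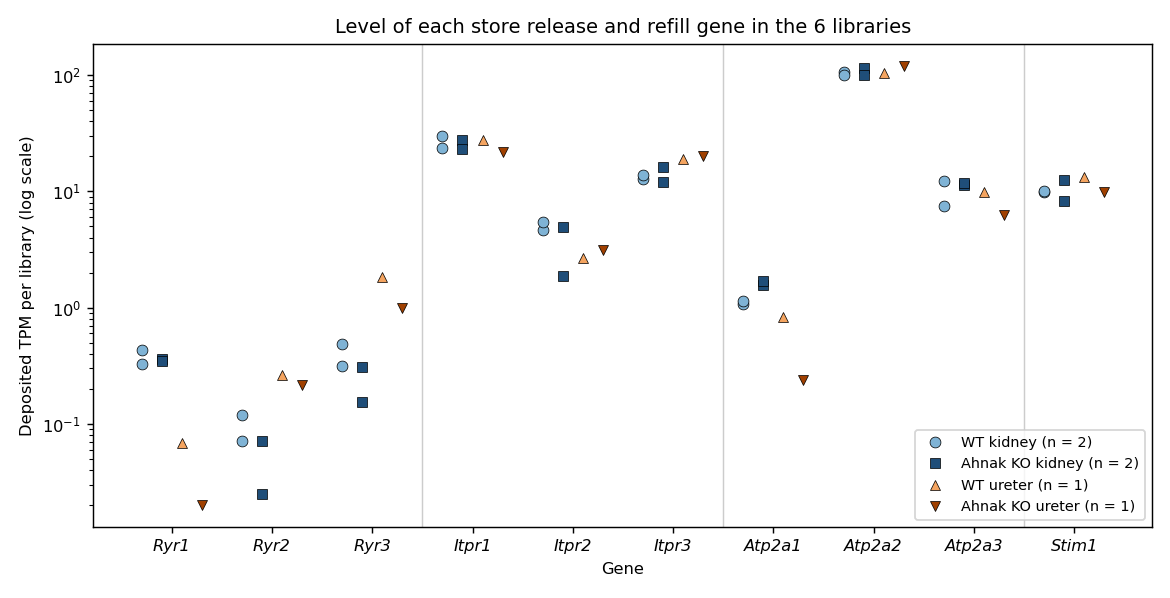
Deposited TPM (vertical log axis) of the 10 genes in each of the 6 libraries, 1 point a library, with kidney in blue and ureter in orange. Atp2a2 lay near 100 in every library, and Ryr1 was lower and Ryr3 higher in both ureter libraries than in any of the 4 kidney libraries.

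The kidney and the ureter were compared over all 6 libraries with tissue and genotype as terms, to ask which parts of the store differ between the organs. Of the 10 genes, 4 were higher and 1 was lower in ureter at an adjusted p under 0.05 (edgeR's quasi-likelihood test, Benjamini-Hochberg over all genes tested). Among all 16873 genes tested, 21.4% were called higher and 23.7% lower. The median log2 difference was 0.38 over the 10 genes and -0.08 over all genes. By the level in CPM alone, 6 of the 10 genes lay higher in both ureter libraries than in every kidney library and 2 lay lower, beside 28.2% and 32.8% of all genes. In deposited TPM the tissues overlapped for Itpr1, Atp2a2 and Stim1. The range of Itpr1 was 21.8 to 27.9 TPM in ureter and 23.0 to 29.9 TPM in kidney. In the same order it was 103 to 120 and 99.5 to 114 TPM for Atp2a2, and 9.79 to 13.2 and 8.32 to 12.4 TPM for Stim1.

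The ryanodine receptors had the 3 largest tissue differences of the 10 genes, and these were not in the same direction. Ryr1, the release channel of skeletal muscle, stood at 2.58 and 2.58 CPM in the KO kidney libraries and at 2.35 and 3.07 CPM in the WT kidney libraries, against 0.235 CPM (7 counts) in KO ureter and 0.602 CPM (31 counts) in WT ureter. The ureter libraries lay below every kidney library, and the log2 difference was -2.70 (SE 0.512, adjusted p = 0.00685 from edgeR). Ryr3, a channel of smooth muscle and brain, stood at 1.12, 2.32, 2.28 and 3.51 CPM in KO kidney 1, KO kidney 2, WT kidney 1 and WT kidney 2, and at 9.95 and 16.2 CPM in KO and WT ureter. The groups did not overlap, and the log2 difference was 2.51 (SE 0.341, adjusted p = 0.00173). Ryr2, the release channel of heart muscle, stood at 0.198, 0.589, 0.927 and 0.558 CPM in the same kidney order and at 2.39 and 2.55 CPM in the ureters. It was counted 12 to 66 times in kidney and 71 and 131 times in ureter, and its log2 difference was 2.19 (SE 0.607, adjusted p = 0.0268).

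Ryr1 remained lower and Ryr3 higher at this threshold when any single library was left out, and Ryr3 also in each of the other fits run. With limma on log2(FPKM + 1), a scale that understates the change of low genes, the difference of Ryr1 was -0.20 and its call was lost (adjusted p = 0.0550). The call for Ryr2 was lost with limma at both pseudocounts (0.12, adjusted p = 0.193, and 0.74, adjusted p = 0.0917) and in the KO libraries alone (2.59, adjusted p = 0.101 from edgeR). It was also lost without the KO ureter (log2 difference 1.77, adjusted p = 0.159 from edgeR), without WT kidney 2 (2.11, adjusted p = 0.0806) and without the WT ureter (2.59, adjusted p = 0.0622). Within the family the shares of summed TPM differed between the tissues, although Ryr3 already led Ryr1 in WT kidney 2 (49.5% and 43.3%). Ryr1 made up 43.0% to 66.7% of ryanodine receptor TPM in the kidney libraries and 3.16% and 1.65% in WT and KO ureter. Ryr3 made up 28.7% to 49.5% in kidney and 84.7% and 80.8% in WT and KO ureter.

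Among the IP3 receptors, Itpr3, which is typical of epithelia, was the only one called between the tissues. It stood at 67.5, 52.6, 53.7 and 57.8 CPM in KO kidney 1, KO kidney 2, WT kidney 1 and WT kidney 2, and at 118 and 97.3 CPM in KO and WT ureter. Both ureter libraries lay above all kidney libraries, with a log2 difference of 0.89 (SE 0.126, adjusted p = 0.00204 from edgeR), and the call was kept in each of the 16 fits run, those without single libraries included. Itpr1, the main receptor of neurons and smooth muscle, stood at 127, 110, 108 and 137 CPM in kidney and 140 and 158 CPM in KO and WT ureter. Its log2 difference of 0.31 (SE 0.128) had an adjusted p of 0.0950 from edgeR. Itpr2 stood at 27.0, 10.7, 25.2 and 29.6 CPM in kidney and 24.4 and 18.1 CPM in ureter, so that the tissues overlapped and the adjusted p was 0.878 in the same edgeR fit. KO kidney 2 held the lowest Itpr2 level of the 6 libraries.

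Of the pumps, Atp2a2 was higher in ureter and the other 2 were not called. Atp2a2 stood at 240, 218, 225 and 211 CPM in the kidney libraries and at 352 and 266 CPM in KO and WT ureter, a log2 difference of 0.45 (SE 0.114, adjusted p = 0.0188 from edgeR). The call was lost with limma at both pseudocounts (0.17 in each, adjusted p = 0.165 and 0.170), in the WT libraries alone (0.28, adjusted p = 0.180 from edgeR), without KO kidney 2 (0.40, adjusted p = 0.0555 from edgeR), without WT kidney 2 (0.46, adjusted p = 0.0539) and without the KO ureter (0.29, adjusted p = 0.150). Scaled by library size alone, its difference was 0.16 with an adjusted p of 0.217 from edgeR. Atp2a1, the fast-twitch skeletal muscle pump, stood at 2.53, 2.81, 1.71 and 1.82 CPM in kidney and at 0.538 CPM (16 counts) and 1.63 CPM (84 counts) in KO and WT ureter. Both ureter libraries lay below every kidney library, but the WT ureter by little, and the log2 difference of -1.03 (SE 0.603) had an adjusted p of 0.209 from edgeR. It was -2.31 without the WT ureter (adjusted p = 0.0201 from edgeR), but -0.11 without the KO ureter (adjusted p = 0.866) and -0.12 in the WT libraries alone (adjusted p = 0.878), so the lower level rests on the KO ureter library.

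Atp2a3, the pump of platelets, lymphocytes and some epithelia, stood at 24.3, 26.0, 25.8 and 16.0 CPM in kidney and 18.7 and 26.2 CPM in ureter. Its tissues overlapped (log2 difference -0.03, SE 0.258, adjusted p = 0.928 from edgeR). Stim1 stood at 20.8, 14.5, 16.5 and 16.9 CPM in kidney and at 23.1 and 27.3 CPM in KO and WT ureter. Its groups did not overlap in CPM, though they did in TPM. The log2 difference of 0.55 (SE 0.189) had an adjusted p of 0.0535 from edgeR, just outside the threshold. Of the 16 fits run, 4 put it past the threshold, which were those with DESeq2 (0.56, adjusted p = 0.0244), with at least 10 counts in every library (0.56, adjusted p = 0.0468 from edgeR), without KO kidney 1 (0.69, adjusted p = 0.0183) and in the WT libraries alone (0.70, adjusted p = 0.0386). With library size alone its difference was 0.27 (adjusted p = 0.323 from edgeR). The scaling bears on all of these values. With library size alone the median difference of all genes was -0.36 in place of -0.08, and 28.0% of the called genes were higher in ureter in place of 47.4%.

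**Figure D2:**
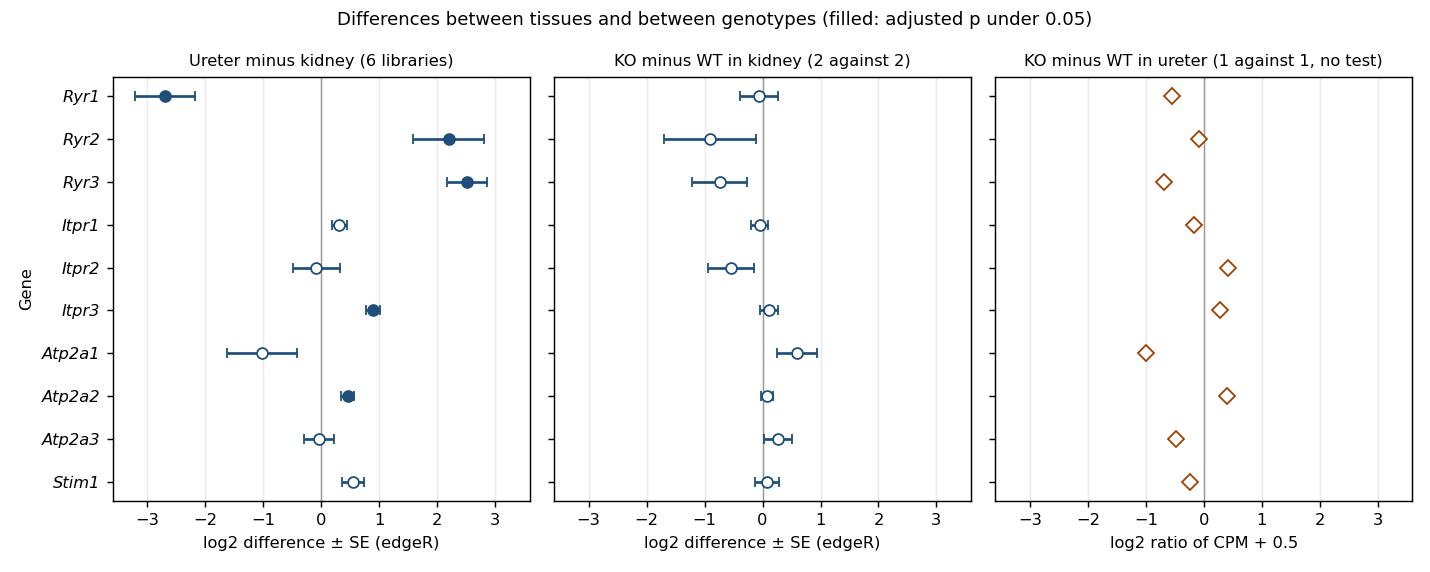
Log2 differences (horizontal axes) of the 10 genes: ureter minus kidney and KO minus WT in kidney with their SE from edgeR, and KO minus WT in ureter as a ratio of CPM + 0.5 with no error. Filled points have an adjusted p under 0.05 and are found only in the first panel, for Ryr1, Ryr2, Ryr3, Itpr3 and Atp2a2.

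**Figure D3:**
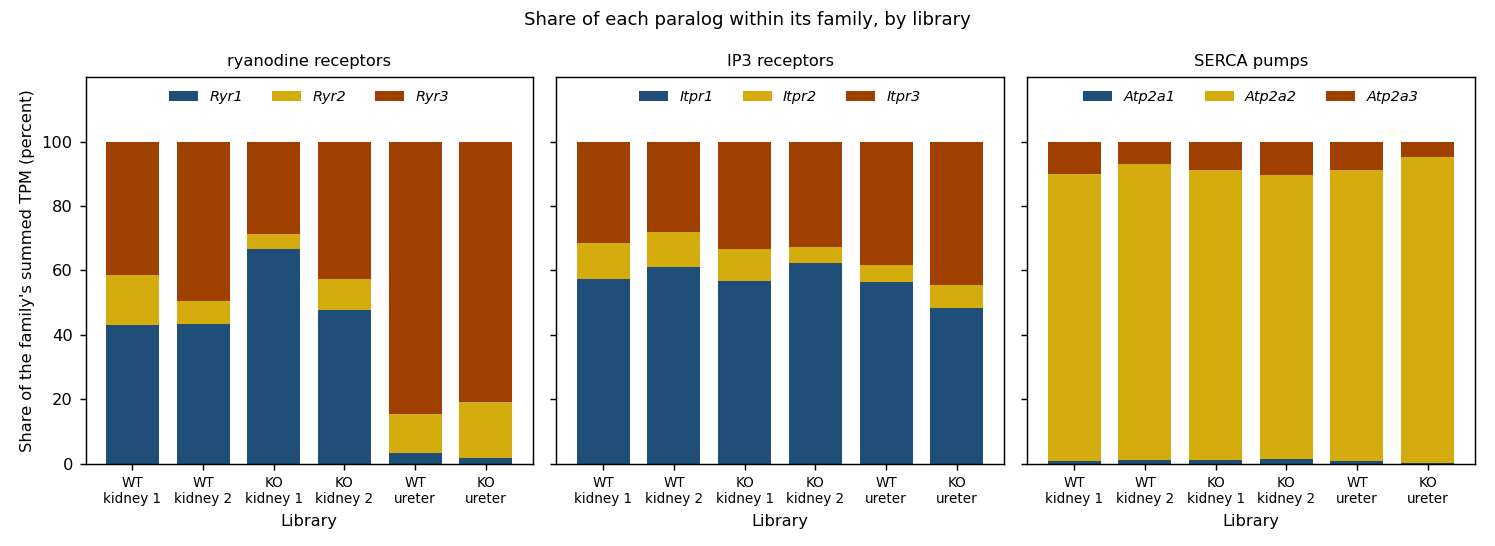
Share in percent of each paralog in the summed TPM of its family (stacked bars from 0), for the 6 libraries. Ryr3 took 80.8% to 84.7% of the ryanodine receptor TPM in ureter, while Atp2a2 took 88.1% to 94.9% of the SERCA TPM in all libraries.

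The pumps and IP3 receptors kept more even shares than the ryanodine receptors. Atp2a2 made up 88.1% to 92.1% of SERCA TPM in kidney and 90.6% and 94.9% in WT and KO ureter. Itpr1 made up 56.7% to 62.2% of IP3 receptor TPM in kidney and 56.4% and 48.3% in WT and KO ureter, and Itpr3 made up 28.1% to 33.2% in kidney and 38.2% and 44.7% in WT and KO ureter. These shares are given as levels, with no test of their own.

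The genes that work with the store were set beside the 10 genes in 7 lists, of which 76 of 77 genes were in the table and 71 were tested between the tissues. Of these, 23 were higher and 15 lower in ureter, beside the 21.4% and 23.7% of all genes given above, against which the counts of the single lists are to be read as well. The list for IP3 synthesis, the phospholipases C, had 5 genes higher and 3 lower of 12 tested, with a median log2 difference of 0.48. Plch2 stood at 2.98 to 5.08 CPM in kidney and 98.5 and 152 CPM in KO and WT ureter (log2 difference 4.98, SE 0.270, adjusted p = 4.71e-05 from edgeR). Plcd1 (3.21, SE 0.150) and Plce1 (2.59, SE 0.125) were higher as well. Plch1 fell by 2.53 on the log2 scale (SE 0.152), from 26.8 to 28.9 CPM in kidney to 4.84 CPM in both ureters, and Plcb1 (-1.54, SE 0.281) and Plcb2 (-1.15, SE 0.291) were lower too. The called phospholipases thus differed in direction.

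The list of release channel partners had 8 genes higher and 3 lower of 20 tested. Homer2, a scaffold that binds both kinds of release channel, stood at 11.3 to 13.4 CPM in kidney and at 203 and 85.2 CPM in KO and WT ureter (log2 difference 3.48, SE 0.262, adjusted p = 1.56e-04 from edgeR). The luminal calcium-binding list had 3 higher and 2 lower of 13 tested. Casq1 and Casq2, the calsequestrins that buffer calcium in muscle stores, were higher by 3.16 (SE 0.216, adjusted p = 1.07e-04 from edgeR) and 3.65 (SE 0.674, adjusted p = 0.00617). Casq2 stood at 0.164 to 0.660 CPM in kidney and at 2.56 and 9.38 CPM in KO and WT ureter. Srl, a calcium-binding protein of the sarcoplasmic reticulum, was lower by a log2 difference of -1.70 (SE 0.203), and the chaperone Hsp90b1 by -0.73 (SE 0.209).

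Store-operated entry, the list around Stim1, was split, with 3 genes higher and 3 lower of 9 tested and a median of 0.19. The higher ones were Orai3 (0.54, SE 0.154), Tmem110 (0.53, SE 0.154) and Selk (0.61, SE 0.0838), and the lower ones were Stim2 (-0.52, SE 0.114), Cracr2b (-0.67, SE 0.169) and Cracr2a. They were named after their values were seen. Cracr2a was at 0 counts in both ureters and at 23 to 57 counts in kidney, so it was at least 5.35-fold lower in ureter, reckoned against 3 counts a library. Among the SERCA regulators only Mrln, which codes for the pump inhibitor myoregulin, passed the filter. It had 62 to 98 counts in the kidney libraries and 0 in the ureters, so it was at least 13.5-fold lower, and it too was named after its values were seen. Sln, another pump inhibitor, was at 0 in all kidney libraries and the KO ureter and at 83 counts in the WT ureter.

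Of the genes for calcium exit across the plasma membrane, 1 was higher and 2 lower of 7 tested, and of the other stores 3 were higher and 1 lower of 9 tested. The lower one of the latter was Tpcn1, a channel of endosomes and lysosomes, with a log2 difference of -1.11 (SE 0.141, adjusted p = 0.00131 from edgeR). The median difference of the 71 genes was 0.19, beside -0.08 over all genes tested.

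**Figure D4:**
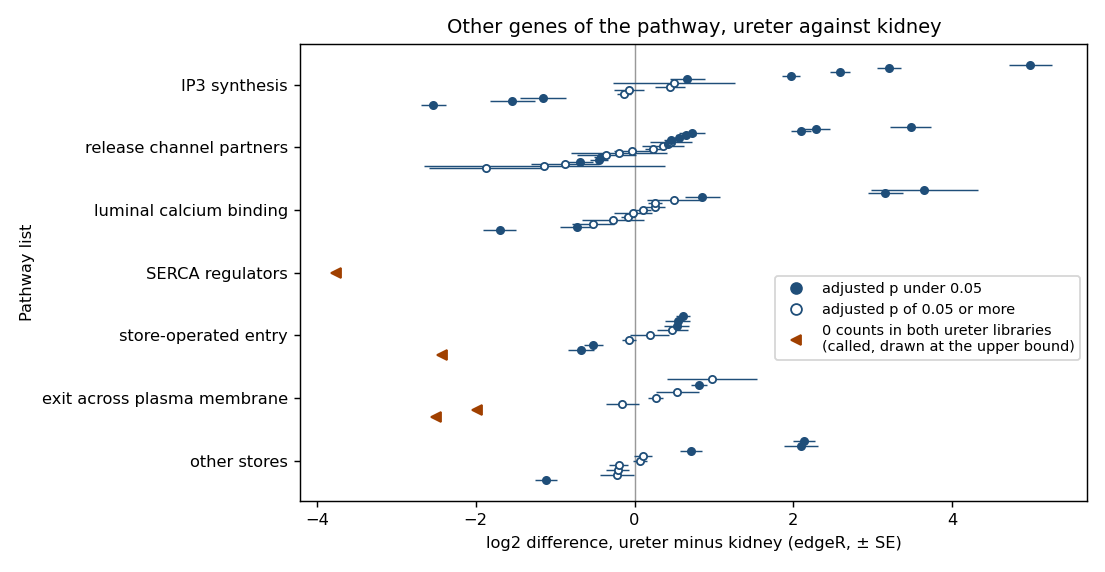
Log2 difference between ureter and kidney (horizontal axis, edgeR, bars are SE) of the tested genes in 7 lists of the calcium store pathway. Filled points are called, and triangles stand for genes at 0 counts in both ureters. Plch2 lies farthest to the right at 4.98, and Mrln is drawn at its bound of at least 13.5-fold lower.

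The make-up of the tissues differed as well, as read from the marker lists. The summed level of 12 smooth muscle markers was 837 to 983 CPM in kidney and 8465 and 9900 CPM in KO and WT ureter, and 10 urothelium markers summed to 69.4 to 79.9 CPM in kidney and 8634 and 7594 CPM in ureter. The 12 kidney epithelium markers summed to 1727 to 2168 CPM in kidney and 7.90 and 6.66 CPM in ureter, where Nphs1, Slc34a1, Umod, Slc12a1, Slc12a3, Aqp2 and Slc22a6 had 3 counts or fewer in both libraries. The labelled tissues were thus found in their defining markers.

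The summed levels of the striated muscle markers were also higher in ureter. Ryr2, described above as the channel of heart muscle, lay higher in CPM in both ureter libraries. Ryr1 and Atp2a1, described as the channel and pump of skeletal muscle, lay lower. Ryr3 and Atp2a2, described above for other tissues, lay higher in CPM as well. The 15 skeletal muscle markers summed to 14.0 to 18.2 CPM in kidney and to 142 and 238 CPM in KO and WT ureter, although Myh1, Myh2, Myh4 and Mybpc2 had 3 counts or fewer in both ureters. The 13 cardiac markers summed to 23.8 to 31.2 CPM in kidney and to 324 and 568 CPM in ureter, with Myl3, Nppa and Nppb at 3 counts or fewer. Both striated muscle lists thus had their lower ureter sum in the KO library. Of the 15 skeletal markers, 9 and 11 had more than 3 counts in KO and WT ureter, and 8 to 11 did in the kidney libraries. Of the 13 cardiac markers, 8 and 10 did in KO and WT ureter, and 9 to 11 in kidney. The higher sums thus did not come with more markers above 3 counts. Of the 10 genes, 7 had their lower ureter level in the KO library, Itpr1, Stim1 and Atp2a3 among them. Over all genes 8352 of 16117 had a lower level in the KO ureter. The muscle calsequestrin Casq1 stood at 30.6 CPM in the KO ureter and 24.7 CPM in the WT ureter. Platelet markers, which mark cells known for Atp2a3, summed to 16.2 to 19.4 CPM in kidney and 89.8 and 69.3 CPM in ureter. However, Gp9, Gp6 and Gp5 of that list had 3 counts or fewer in both ureters. Only 6 of its 9 genes in the KO ureter and 4 in the WT ureter had more than 3 counts. The part of muscle cells and platelets in the levels of the 10 genes was not tested.

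The remaining lists differed less. Of the 6 brown fat markers, only 2 or 3 had more than 3 counts in a kidney library and 4 in each ureter. Of the 7 adrenal cortex markers, 5 or 6 did in a kidney library and only 3 in each ureter. Endothelium markers summed to 776 to 931 CPM in kidney and 840 and 915 CPM in KO and WT ureter. Leukocyte markers summed to 57.8 to 88.6 CPM and to 120 and 150 CPM, neuron and glia markers to 27.8 to 35.4 CPM and to 56.4 and 55.2 CPM, adrenal cortex markers to 4.69 to 7.88 CPM and to 8.24 and 5.13 CPM, and brown fat markers to 324 to 418 CPM and to 556 and 276 CPM, in the same order.

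**Figure D5:**
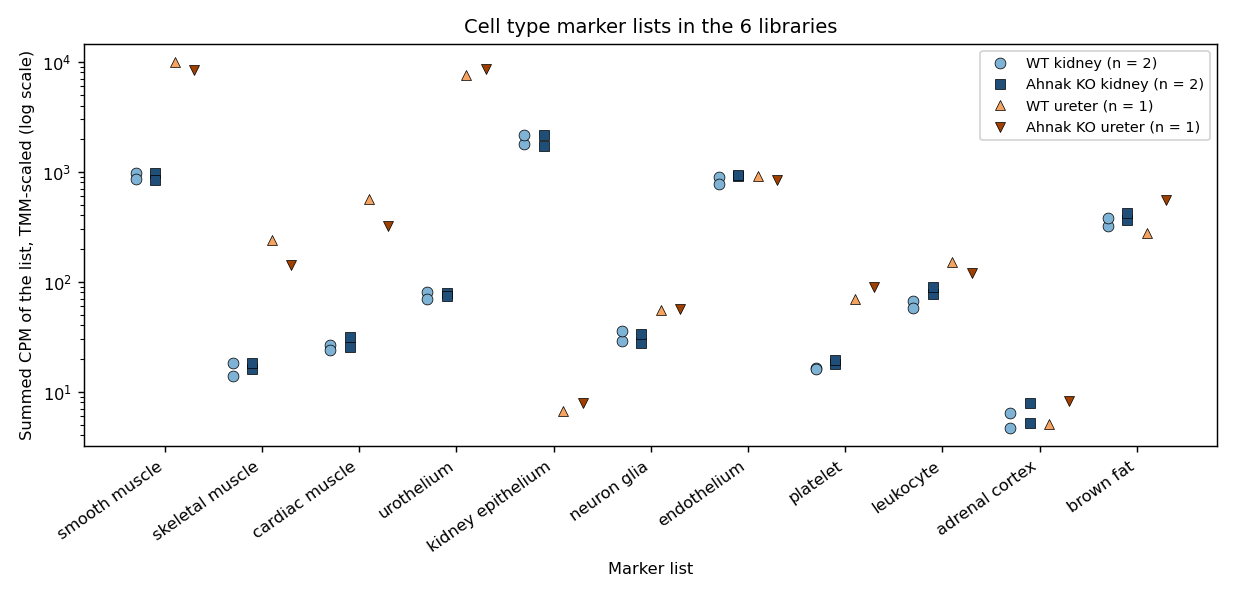
Summed TMM-scaled CPM (vertical log axis) of 11 cell type marker lists, 1 point for each of the 6 libraries. Smooth muscle and urothelium sums were 7594 CPM or more in both ureters, and kidney epithelium sums were 7.90 CPM or less.

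The effect of the Ahnak KO in kidney was tested on the 4 kidney libraries. None of the 10 genes was called (edgeR's quasi-likelihood test), 0 had an unadjusted p under 0.05, and DESeq2 and limma called 0 of them as well. Of all 16481 genes tested 0.0121% were called, which were Gvin1 and Rnf8-cmtr1, both lower in KO and both named after their values were seen, while 227 had an unadjusted p under 0.05. The median log2 difference was 0.01 over the 10 genes, of which 5 were above 0 and 5 below, and -0.004 over all genes.

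The estimates differed in precision. Atp2a2 (0.07, SE 0.105), Itpr1 (-0.05, SE 0.148), Itpr3 (0.11, SE 0.155) and Stim1 (0.08, SE 0.209) had the narrowest errors of the log2 difference between KO and WT kidney. Ryr2 (-0.91, SE 0.792), Ryr3 (-0.74, SE 0.480) and Itpr2 (-0.54, SE 0.401) had wide ones. Itpr2 stood at 27.0 and 10.7 CPM in the KO kidneys against 25.2 and 29.6 CPM in the WT kidneys, and the difference was -1.36 without KO kidney 1 and -0.03 without KO kidney 2. Leaving out single libraries moved Ryr2 between -1.90 and -0.33 and Ryr3 between -1.37 and -0.31.

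Atp2a1 was the only one of the 10 genes whose kidney genotypes did not overlap. It stood at 2.53 and 2.81 CPM in KO and 1.71 and 1.82 CPM in WT kidneys, a log2 difference of 0.60 (SE 0.341, unadjusted p = 0.129 and adjusted p = 1 from edgeR). Among all genes tested 12.8% lay higher in both KO kidneys than in both WT kidneys and 13.5% lay lower.

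In ureter, 1 KO library was set against 1 WT library, so no test was made and the intervals cover counting error only. None of the 10 genes was past a ratio of 2 on the scale of CPM + 0.5, beside 4.44% of 16117 genes higher in KO and 5.78% lower. Atp2a1 came nearest, with 16 counts in KO and 84 in WT ureter. Its log2 ratio of CPM + 0.5 was -0.99, and the ratio of its scaled reads was 0.329 (95% exact binomial interval 0.180 to 0.565). Ryr1, with 7 and 31 counts, had a read ratio of 0.390 (0.145 to 0.902). These 2 members were described above as the pump and channel of skeletal muscle, and both rest on few counts.

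Ryr3 had 296 counts in KO and 836 in WT ureter, a read ratio of 0.611 (95% interval 0.533 to 0.698). Atp2a3 (0.714, 0.646 to 0.789), Stim1 (0.844, 0.769 to 0.925) and Itpr1 (0.888, 0.855 to 0.922) were below 1 too, and Ryr2 (0.935, 0.691 to 1.26) had an interval on both sides of 1. Itpr2 (1.34, 1.22 to 1.48), Atp2a2 (1.32, 1.29 to 1.35) and Itpr3 (1.21, 1.16 to 1.27) were above 1. So 7 ratios were below 1 and 3 above, beside 8352 lower and 7765 higher in KO among all 16117 genes. The variation between mice is not in these intervals. In the pathway lists Homer2 was past a ratio of 2 upward (6038 and 4384 counts in KO and WT ureter) and 4 genes downward, namely Casq2 (76 and 483 counts), Jph4 (23 and 134), Jsrp1 (8 and 97) and Sln (0 and 83), all but Homer2 and Casq2 named after their values were seen. Casq2, Jsrp1 and Sln are known from striated muscle, but Jsrp1 had a higher mean in kidney (3.43 CPM) than in ureter (1.08 CPM). Other genes of the lists that are known from muscle differed among themselves. All of these but Casq1 and Srl were named after their values were seen. Jph2 (read ratio 0.596, 95% interval 0.561 to 0.634), Stac3 (0.615, 0.394 to 0.936) and Tmem38a (0.7035, 0.645 to 0.767) were below 1. Casq1 was above 1 (1.23, 1.13 to 1.34). Srl (1.17, 0.998 to 1.36), Jph1 (0.967, 0.742 to 1.25) and Hrc (0.915, 0.781 to 1.07) had intervals on both sides of 1. The part of muscle tissue in these ratios was not tested.

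With both tissues in 1 fit, the KO effect common to kidney and ureter was called for none of the 10 genes (edgeR), with 0 at an unadjusted p under 0.05. It was called for 0% of all 16873 genes, of which 593 had an unadjusted p under 0.05, and DESeq2 called 18 genes. The lowest unadjusted p of the 10 genes was that of Ryr3, 0.0702, with a log2 difference of -0.73 (SE 0.337, adjusted p = 0.882 from edgeR). Ryr3 was lower in the KO ureter than in the WT ureter, and the KO kidneys (1.12 and 2.32 CPM) overlapped with the WT kidneys (2.28 and 3.51 CPM).

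Whether the KO effect differed between the tissues was tested as an interaction. None of the 10 genes was called, beside 0.108% of 17557 genes, and 1 gene, Atp2a1, had an unadjusted p under 0.05. Its KO effect in ureter minus that in kidney was -2.20 on the log2 scale (SE 0.692, unadjusted p = 0.0198, adjusted p = 0.303 from edgeR), as KO lay above WT in kidney and below WT in ureter. The adjusted p was between 0.211 and 0.614 over the 12 fits run. The ureter side of this test rests on 1 library a genotype, which is taken to vary as the kidney libraries do.

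Each gene's pattern over the 6 libraries was compared with those of 14585 genes by the Euclidean distance between centred log2(CPM + 0.5) values, which is a description without a test. Among the genes nearest to Ryr1 were Sv2a (distance 0.18) and D430041D05Rik (0.25). Those nearest to Ryr2 were Nqo1 (0.26), Clec4a2 (0.28) and Tmem229b (0.33), and those nearest to Ryr3 were Lnx1 (0.40), Vtn (0.44) and Adm (0.51). For Itpr3 the nearest were Tmod3 (0.08), Cmpk1 (0.10) and Ccdc53 (0.17), and for Atp2a2 Rad23b (0.06), Rap2b (0.07) and Tspan5 (0.08). Itpr1 lay nearest to Cox20 (0.11), Itpr2 to Prdm4 (0.40), Atp2a1 to Rasgrp4 (0.28), Atp2a3 to Parvg (0.15) and Stim1 to Pla2g4a (0.15). No gene of the 10 was among the nearest of another.

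RefSeq promoter sequence (GRCm38.p6) was at hand for 7 of the 10 genes. The 250 bases before the start are shown for the called genes among them, Ryr1, which was lower, and Ryr2 and Itpr3, which were higher in ureter. Capitals mark matches of GGGCGG on either strand.
Ryr1: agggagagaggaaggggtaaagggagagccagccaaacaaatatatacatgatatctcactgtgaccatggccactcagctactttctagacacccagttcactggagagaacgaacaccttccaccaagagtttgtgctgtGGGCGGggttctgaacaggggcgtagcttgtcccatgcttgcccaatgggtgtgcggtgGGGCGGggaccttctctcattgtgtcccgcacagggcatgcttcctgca
Ryr2: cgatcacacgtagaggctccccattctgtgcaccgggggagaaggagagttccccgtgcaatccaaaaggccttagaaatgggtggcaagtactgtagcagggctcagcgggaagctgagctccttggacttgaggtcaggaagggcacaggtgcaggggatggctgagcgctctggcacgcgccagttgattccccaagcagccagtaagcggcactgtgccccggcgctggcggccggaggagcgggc
Itpr3: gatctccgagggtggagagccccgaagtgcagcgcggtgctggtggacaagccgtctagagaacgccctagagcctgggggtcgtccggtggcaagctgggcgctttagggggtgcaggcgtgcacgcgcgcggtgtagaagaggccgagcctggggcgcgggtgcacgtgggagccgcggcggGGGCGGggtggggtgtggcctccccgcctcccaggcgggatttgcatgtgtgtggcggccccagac
They lie at chr7:29125152-29125401 (minus strand), chr13:12106946-12107195 (minus strand) and chr17:27057054-27057303 (plus strand). GGGCGG was found 2 times before Ryr1, 1 time before Itpr3 and not before Ryr2, and it occurs in 32.7% of 32851 promoters of this length. The CArG box of smooth muscle genes (in 1.5% of all promoters), the MEF2 motif (2.9%), CAGCTG (13.0%) and TATAAA (12.4%), each searched on both strands, had no match in these 3 windows. These are letter matches in a short window and say nothing of binding. GC content was 54.8% before Ryr1, 63.2% before Ryr2 and 72.0% before Itpr3, with a median of 52.4% over all promoters.

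The annotation places genes on the opposite strand over exons of some of the 10 genes, and the strand setting of the counting was not given in the sources used here. Aven overlaps 912 exonic bases of Ryr3 in the table's transcript. It stood at 13.7 to 15.3 CPM in kidney and 10.2 and 13.0 CPM in KO and WT ureter. Gm26604 overlaps 763 bases of Ryr1 and was not among the table's symbols. Rabep2 overlaps 763 bases of Atp2a1 and stood at 20.7 to 28.1 CPM in kidney and 25.4 and 28.3 CPM in KO and WT ureter. The part of reads from these genes in the levels of Ryr1, Ryr3 and Atp2a1 was not tested.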

How the data were processed

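RNA of kidney and ureter was sequenced by the authors with the TruSeq Stranded mRNA kit on an Illumina HiSeq2500. The study's methods name Cutadapt 2.8, STAR 2.7.1a on GRCm39 and Cufflinks 2.2.1, whereas the submitters' processing notes name Trimmomatic 0.38, HISAT2 2.1.0, StringTie 1.3.4b and mm10. The authors deposited, for 24532 genes, expected counts (estimated read counts as whole numbers, not normalized), FPKM and TPM. The treatment of reads that map to several genes was not given in the sources used here. The tests had been planned for counts and were run on these estimated counts.

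Groups were taken from the labels. Counts were scaled with TMM, filtered with filterByExpr and tested with edgeR 4.0.16 (quasi-likelihood, R 4.3.3, Benjamini-Hochberg over all genes tested, called at an adjusted p under 0.05). SE is the absolute log2 difference divided by the square root of F, an approximation. Kidney KO and WT were fitted alone (2 residual degrees of freedom), and the tissue and common KO effects over all 6 libraries (3). Ureter ratios were taken on log2(CPM + 0.5) with TMM factors, where the larger count was 10 or more. The p-values measure the spread between these libraries, which the study's methods call biological replicates. Whether each came from separate mice was not given in the sources used here. Alternatives used DESeq2 1.42.0, limma 3.58.1 on log2(FPKM + 1) and log2(FPKM + 0.1), other scalings and filters, and single libraries left out. Code was tested on simulated data. Replicates differed by far more than sampling noise (chi-square per gene of 79.8 and 73.3). The 10 genes, the 7 pathway lists and 11 marker lists were chosen with earlier results of these data known. Named pathway genes are the 6 with the largest tissue difference in each direction, among those called with a mean of at least 1 CPM. For each of the 10 genes the 3 nearest profiles were found; 1 of these and 1 sequence window are not reported here. Windows of sequence were read from GENCODE M21 transcripts and RefSeq promoters, and coordinates are GRCm38, which is also called mm10.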

Additional observations from a re-analysis of the deposited data

Results flagged for a closer look

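Atp2a1 was picked out because its kidney and ureter libraries moved in opposite directions with genotype, and the difference was tested. KO kidneys (2.53 and 2.81 CPM) lay above WT kidneys (1.71 and 1.82 CPM), while the KO ureter (0.538 CPM) lay below the WT ureter (1.63 CPM). The KO effect in ureter minus that in kidney was -2.20 on the log2 scale (edgeR's quasi-likelihood test, unadjusted p = 0.0198, adjusted p = 0.303), so it did not pass the adjustment over 17557 genes. The skeletal muscle marker list, which does not hold Atp2a1, summed to 142 CPM in the KO ureter and 238 CPM in the WT ureter. In kidney, where Atp2a1 stood higher than in ureter, the list summed to 14.0 to 18.2 CPM. The part of skeletal muscle cells in the result was not tested. No group has the 4 libraries that a check for outlying libraries would need.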

How the results depend on the processing

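In kidney KO against WT, 0 of the 10 genes were called under any setting. The count over all genes, 2 as reported, was 1 with at least 10 counts in every library, 44 with DESeq2, 0 with limma at either pseudocount, and 3 to 87 when single libraries were left out. With the replicate block, which takes the numbers 1 and 2 of the titles as a term, it was 0. No source used here says that the numbers mark a shared litter or day, and the deviations of same-numbered libraries correlated at -0.282, so the kidney libraries were not treated as pairs. Without single libraries the signs of differences near 0 turned, as the log2 difference ran from -0.25 to 0.14 for Ryr1, -0.22 to 0.14 for Itpr1, -0.08 to 0.27 for Itpr3, -0.04 to 0.66 for Atp2a3 and -0.20 to 0.31 for Stim1. Between ureter and kidney, library size alone gave 2371 genes higher and 6108 lower. With limma, lower calls over all genes were 6360 on log2(FPKM + 1) and 6557 on log2(FPKM + 0.1), and 2 of the 10 genes were called higher in both. None of the 10 was called lower, a count of 0, with the first of these or with at least 10 counts in every library, a filter that removes Ryr1. Without single libraries 2 to 5 of the 10 were called higher and 1 to 2 lower. The range was -0.60 to 0.37 for Itpr2 and -0.43 to 0.32 for Atp2a3, which was 0.32 in WT libraries only, while Itpr2 was 0.37 in KO libraries only. For the KO effect over both tissues DESeq2 called 18 genes, and 0 to 2 were called without single libraries. For its difference between tissues, 19 genes as reported became 476 with DESeq2, 0 with limma on either scale, and 4 to 270 without single libraries. In ureter, the counts of the 10 genes past a ratio of 2 and lower in KO were 1 with library size alone and 2 with a pseudocount of 0.1, while the share of all genes so called rose from 5.78% to 8.13% and 10.2%. The cause of these changes was not tested.

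Depth limits Ryr1, Ryr2 and Atp2a1 most, with 7 to 187 counts a library. A ureter group of 1 library a genotype cannot show the spread between mice, and 2 against 2 kidneys leave errors of 0.105 to 0.792 on the log2 differences of the 10 genes.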
